A study of Mus musculus with 8 samples.

Results

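Solute carriers are the membrane proteins, named Slc followed by a family number and a member number, that move amino acids, sugars, ions, metals, vitamins, nucleosides and metabolites across the cell surface and the membranes of organelles. The genes described here are the 125 mouse solute carrier genes that were expressed in sorted bone marrow progenitors, out of 24411 genes in the tables. They are all genes whose symbol reads Slc, a number, the letter a and a number, and whose mean over the 8 libraries was at least 10 CPM (a library's count over its total, scaled to a common total), with Slc4a1, Slc11a2, Slc40a1 and Slc25a38 left out by name. Of 331 symbols of that form, 202 lay below the minimum, and 38 of those had no count in any library. Substrate classes were given by family, with exceptions for single genes. Families with another letter, such as Slc35b, are outside the rule. Just inside the minimum stood the thiamine carrier gene Slc19a2 at a mean of 10.8 CPM, Slc25a25 at 10.5 and Slc22a4 at 10.2. Just outside stood Slc25a14 at 9.83, Slc7a4 at 9.72 and Slc41a3 at 9.58 CPM. The genes were thus chosen by their mean CPM over all libraries, so their level is a description and not a finding.

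RNA was sequenced from primary bone marrow cells of wild type C57BL/6 mice, with no treatment and no engineered allele named, and every population had been sorted as KIT+ and CD16/32-. The CD34bright population was in addition CD34bright CD41+ CD9+. The other three were CD34dim: CD48dim and CD48bright cells were both CD41+ CD9+ and differed in CD48, and the CD41/CD9-negative population lacked CD41 and CD9. Each population had 2 libraries, and what was compared was the 4 populations with one another. The age of the mice and whether the libraries came from separate mice or sorts could not be read from the labels, so each p-value reflects spread among these libraries alone, which may be technical. In bulk RNA, fewer cells of a type and less RNA per cell cannot be told apart.

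Amino acid carriers feed protein synthesis and the nutrient sensor mTORC1. The heterodimeric carriers pair a light chain of the Slc7 family with a heavy chain, Slc3a1 or Slc3a2. Glucose enters blood cells mainly through Slc2a1 and Slc2a3. Zinc enters the cytosol through the Slc39 (ZIP) family and leaves it through the Slc30 (ZnT) family. Most, though not all, members of the Slc25 family carry nucleotides, phosphate, amino acids or cofactors across the inner mitochondrial membrane. In blood cell precursors such carriers are known for roles in haem synthesis, in the uptake of nutrients for growth and, in mast cells, basophils and platelets, in the storage of amines in granules.

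Of the 12 genes that passed an edgeR test described further on, 5 had a RefSeq start in build GRCm38.p6 whose upstream window lay outside the annotated gene, and the 250 bases before that start are shown for them because their transcript levels set the CD41/CD9-negative population apart. The first 4 were lowest in that population and the last was highest there. The windows are Slc7a8 at chr14:54781887-54782136, minus strand, Slc18a2 at chr19:59260628-59260877, plus strand, Slc45a3 at chr1:131962665-131962914, plus strand, Slc22a3 at chr17:12507705-12507954, minus strand, and Slc44a2 at chr9:21320469-21320718, plus strand. Each is written 5′ to 3′ along the gene, and capitals mark matches to any of 8 short motifs searched on both strands.
Slc7a8: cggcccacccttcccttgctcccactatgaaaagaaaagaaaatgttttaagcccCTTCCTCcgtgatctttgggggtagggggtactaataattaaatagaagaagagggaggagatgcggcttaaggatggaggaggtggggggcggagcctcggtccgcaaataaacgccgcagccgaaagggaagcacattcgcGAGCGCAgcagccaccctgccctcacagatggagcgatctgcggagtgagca
Slc18a2: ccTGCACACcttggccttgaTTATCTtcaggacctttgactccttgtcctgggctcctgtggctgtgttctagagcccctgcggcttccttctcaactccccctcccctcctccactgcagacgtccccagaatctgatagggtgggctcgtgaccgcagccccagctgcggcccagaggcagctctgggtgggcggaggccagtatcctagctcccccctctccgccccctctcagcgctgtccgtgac
Slc45a3: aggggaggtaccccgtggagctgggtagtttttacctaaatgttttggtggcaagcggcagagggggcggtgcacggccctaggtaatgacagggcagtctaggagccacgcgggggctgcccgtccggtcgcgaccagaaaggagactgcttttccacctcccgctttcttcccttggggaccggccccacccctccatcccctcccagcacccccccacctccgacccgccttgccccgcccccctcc
Slc22a3: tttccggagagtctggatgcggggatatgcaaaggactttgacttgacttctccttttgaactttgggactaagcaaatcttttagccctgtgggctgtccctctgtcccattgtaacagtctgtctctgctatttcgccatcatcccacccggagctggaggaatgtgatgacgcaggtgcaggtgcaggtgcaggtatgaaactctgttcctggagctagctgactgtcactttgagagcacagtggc
Slc44a2: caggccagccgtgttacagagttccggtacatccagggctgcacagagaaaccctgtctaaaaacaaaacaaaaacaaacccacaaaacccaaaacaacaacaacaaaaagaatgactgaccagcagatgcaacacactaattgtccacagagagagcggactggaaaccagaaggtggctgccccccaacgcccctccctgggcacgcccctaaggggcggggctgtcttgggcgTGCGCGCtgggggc
In the Slc7a8 window the capitals are 1 match to the ETS motif of the PU.1 type, GAGGAAG, and 1 to a metal response core, TGCGCNC, both on the reverse strand. In the Slc18a2 window they are 1 match to the GATA motif AGATAA, on the reverse strand, and 1 to the other metal response core, TGCACNC. The Slc44a2 window holds 1 match to TGCGCNC, and the Slc45a3 and Slc22a3 windows hold none of the 8. Such short motifs are common: 9.99% of all 32851 promoters in the RefSeq table hold AGATAA, 10.6% hold GAGGAAG, 12.5% hold TGCGCNC and 10.4% hold TGCACNC. Over the 124 promoters found for 93 of the 125 carriers, the shares were 8.06% for AGATAA, 7.26% for GAGGAAG, 19.4% for TGCGCNC and 14.5% for TGCACNC. The E-box CACGTG, which the MYC and TFEB families bind, was in 13.7% of the carriers' promoters and in 6.02% of all. The remaining shares, carriers first, were 12.9% and 14.0% for the RUNX motif TGTGGT, 2.42% and 2.98% for the interferon regulatory factor motif, and 1.61% and 3.45% for the amino acid response motif TGATGNAA. Some matches to CACGTG and the metal response cores can overlap one another, and a match is a description of the letters only.

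The libraries held 7237587 to 20632005 expected counts, with the fewest in the second CD48dim library. The CD48dim pair stood apart from each other: 47.7% of all genes tested differed by more than 2-fold between its libraries, against 9.08% in CD34bright, 15.4% in CD41/CD9-negative and 18.5% in CD48bright. Markers of mature neutrophils (10 of 10 genes found, none at 0 in every library) summed to 4175 and 624.8 CPM in CD48dim, 702.0 and 49.9 in CD41/CD9-negative, and 115.2 to 165.6 elsewhere. Platelet markers (6 of 6 found, none at 0 throughout) summed to 155.0 and 147.0 CPM in CD48dim, 42.3 and 22.7 in CD41/CD9-negative and 62.1 to 75.5 elsewhere. The sums of 4 haemoglobin genes were 197.2 and 32.7 CPM in CD48dim and 4.33 to 18.5 elsewhere, and 8 B cell genes summed to 138.0 and 119.5 CPM in the CD41/CD9-negative libraries against 18.8 to 63.5. T and NK cell markers (9 of 10 found) summed to 75.2 to 422.3 CPM and macrophage markers (8 of 8) to 5.01 to 59.1 CPM. Their part in the results was not tested. Of 7 sort marker genes, 2 passed over all populations (edgeR). The means of Itga2b, Cd9, Cd48 and Cd34, whose gates differed between populations, followed those gates. Kit, Fcgr3 and Fcgr2b, whose gates all populations shared, are not shown. Itga2b (CD41) had a mean of 2.51 ± 0.462 CPM (SD, n = 2) where CD41 and CD9 were gated out and 64.3 to 155.2 elsewhere. Cd9 had means of 7.43 ± 6.50 and 26.6 to 56.8 in the same order. Cd48 had a mean of 26.4 ± 13.4 in CD48dim and 156.6 to 245.9 elsewhere. Cd34 was highest in CD34bright, at 485 ± 34.7 CPM, and differed from CD48dim by 1.42 ± 0.39 log2 without passing the test (adjusted p = 0.112, edgeR).

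All 125 carriers were read in all 8 libraries and all passed the filter on low counts. Together they took 0.800% to 0.943% of the counts in 7 libraries and 1.17% in the second CD48dim library. Compared per transcript length, in TPM (transcripts scaled by length and to a common total), the highest mean was that of the adenine nucleotide translocase gene Slc25a5 at 1026 TPM, followed by the mitochondrial phosphate carrier gene Slc25a3 at 544. Far below came Slc38a2 at 229 TPM, a neutral amino acid carrier gene, Slc43a3 at 185, a purine nucleobase carrier gene, and the monoamine and organic cation carrier genes Slc22a3 at 165 and Slc18a2 at 163. In order of TPM the next were Slc25a4 at 156, Slc44a2 at 147, Slc14a1 at 143 and Slc50a1 at 115. Of the 125, 99 were at 10 CPM or more in every population, and 26 fell below that in at least 1 population, so those 26 had to be higher in another.

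Expression of 4 of the 125 carriers (3.2%) differed among the 4 populations, against 2.44% of the 13177 genes tested. These were the neutral amino acid carrier gene Slc7a8, the vesicular monoamine carrier gene Slc18a2, the anion exchanger gene Slc26a11 and the sugar carrier gene Slc45a3, with adjusted p = 0.0103, 0.024, 0.0464 and 0.048 (edgeR quasi-likelihood F-test, Benjamini-Hochberg over all genes tested, threshold 0.05). Of the 4, 3 are among the 26 carriers that fell below 10 CPM somewhere, so their share is no support for a difference beyond the choice of genes. Without adjustment 29 carriers had p below 0.05, or 23.2%, against 16.85% of all genes tested. The libraries of the highest and the lowest population did not overlap for 92 carriers, and for 70.7% of all genes tested. Fitted with the replicate number as a block, 13 carriers passed, against 5.8% of all genes. The count was 10 without both CD48dim libraries, an alternative chosen after seeing the data, against 4.68% of all genes. Leaving out 1 library gave 1 carrier without either CD41/CD9-negative library and 2 without any CD34bright or CD48bright library, but 47 and 17 without the first and the second CD48dim library, when 24.7% and 9.11% of all genes passed.

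Between pairs of populations, 10 carriers (8%) differed between CD41/CD9-negative and CD48dim, against 4.02% of all genes tested. Of them, 5 were higher in CD41/CD9-negative (all genes: 1.98%): the sodium-proton exchanger genes Slc9a9 and Slc9a7, the nucleoside carrier gene Slc29a3, the choline carrier gene Slc44a2 and the fatty acid carrier gene Slc27a1. The other 5 were lower there (all genes: 2.04%): the amino acid carrier genes Slc43a1 and Slc7a8, the zinc carrier gene Slc39a13, and the amine carrier genes Slc18a2 and Slc22a3. Slc9a9, Slc9a7 and Slc7a8 are among the 26 carriers that fell below 10 CPM in some population. Of those 26, 11.5% passed this comparison, and of the other 99, 7.07%. The 13177 genes tested were not chosen by the 10 CPM minimum, so the shares of 8% and 4.02% are not like for like. The 8% is therefore not read as a difference of the carriers from other genes. Slc7a8 was also the only carrier to pass between CD41/CD9-negative and CD48bright (all genes: 0.212%, with 0.129% lower and 0.0835% higher) and between CD34bright and CD41/CD9-negative (all genes: 0.842%). No carrier passed with edgeR between CD48bright and CD48dim (0.387% of all genes), where 19 had an unadjusted p below 0.05 (all genes: 1920 of 13177), DESeq2 called 3 (all genes: 5.77%) and limma-voom 0 (all genes: 0.0379%). Between CD34bright and CD48dim (0.577% of all genes) edgeR called 0 carriers, 30 had an unadjusted p below 0.05 (all genes: 2505 of 13177), DESeq2 called 15 (all genes: 9.68%) and limma-voom 0 (all genes: 0.342%). Between CD34bright and CD48bright 0 carriers passed with edgeR (all genes: 0%), DESeq2 (all genes: 0.257%) or limma-voom (all genes: 0%). With edgeR 1 had an unadjusted p below 0.05 (all genes: 262 of 13177). These comparisons share libraries and are not independent of one another. In the edgeR fit without a block, 12 carriers passed over all populations or in a pair and 113 passed in neither. Besides the 4 above, the 8 that passed only in a pair were named after their values were seen, except Slc22a3 and Slc39a13. Calls of single genes further on are those of edgeR unless another method is named.

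With the replicate number as a block, 13 carriers passed between CD41/CD9-negative and CD48dim (7.32% of all genes), 5 between CD41/CD9-negative and CD48bright (0.751% of all genes), 7 between CD34bright and CD48dim (5.18%) and 6 between CD34bright and CD41/CD9-negative (2.02%), 0 between CD48bright and CD48dim (1.35%) and 0 between CD34bright and CD48bright (0%). The 9 carriers that the block added over all populations were Slc43a1, Slc9a9, Slc39a13, Slc25a5, Slc29a3, Slc22a3, Slc44a2, Slc27a1 and Slc22a17, with adjusted p = 0.0151 to 0.0387 (edgeR). Pairs it added that are not given with their gene further on were Slc22a3 against CD48bright and CD34bright (adjusted p = 0.0412 and 0.0219), Slc26a11 between CD34bright and CD41/CD9-negative (0.0217), Slc18a2 and the peptide carrier gene Slc15a2 between CD34bright and CD48dim (0.0237 and 0.0481), and Slc22a17 against CD48dim in CD34bright and CD41/CD9-negative (0.025 and 0.0478). Without both CD48dim libraries 6 carriers passed between CD41/CD9-negative and CD48bright (2.97% of all genes), 13 between CD34bright and CD41/CD9-negative (5.66%) and 0 between CD34bright and CD48bright (0.0937%). The count of 10 between CD41/CD9-negative and CD48dim was 42 and 20 without the first and second CD48dim library (23.9% and 10.4% of all genes), 1 without either CD41/CD9-negative library (0.573% and 0.749%), and 3 to 4 without any other (1.97% to 2.45%). Fitted on the 4 compared libraries alone, that comparison gave 1 carrier, Slc18a2 (1.02% of all genes), while CD41/CD9-negative against CD48bright gave 6 (2.47%) and CD34bright against CD41/CD9-negative gave 17 (8.7%).

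**Figure D1:**
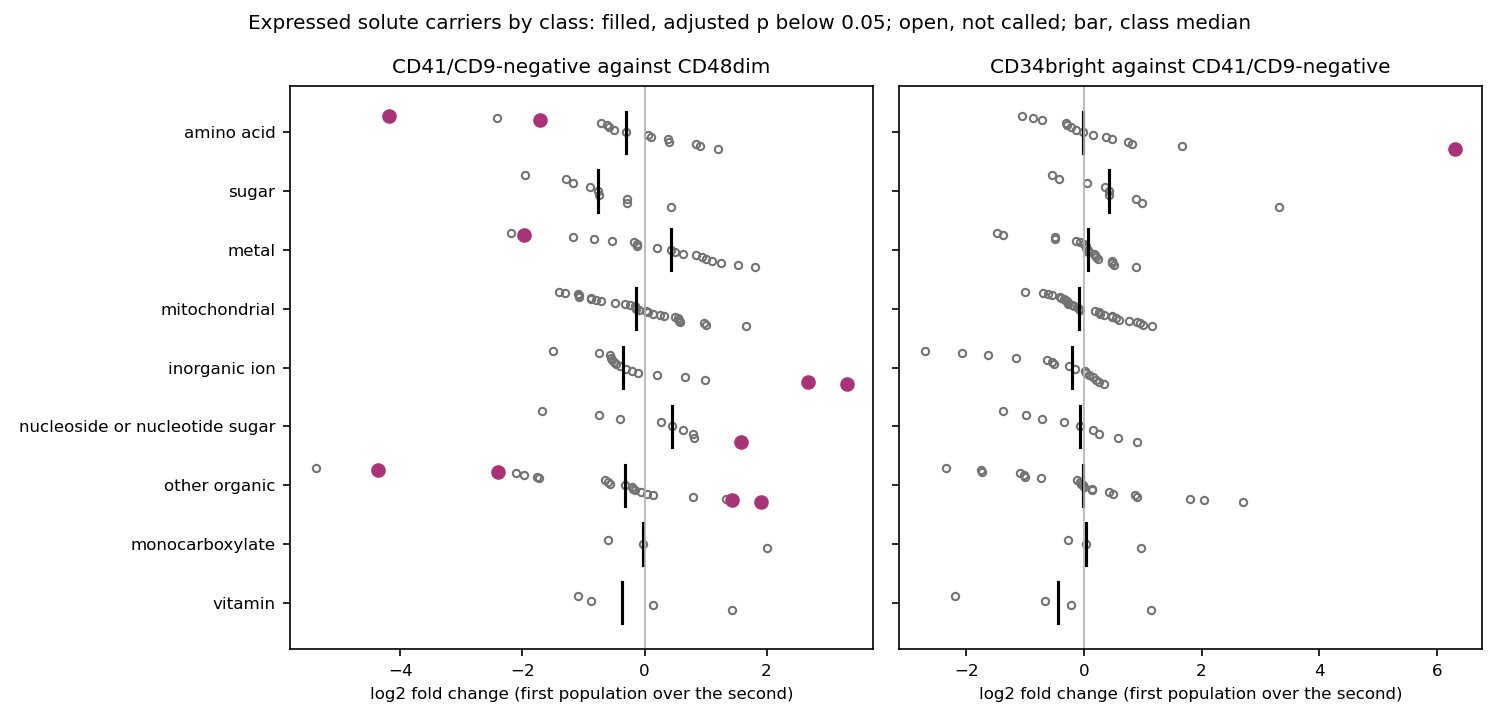
Log2 fold changes of the 125 carriers by substrate class, for CD41/CD9-negative over CD48dim (left) and CD34bright over CD41/CD9-negative (right); filled points passed the edgeR test at an adjusted p below 0.05, open points did not, and bars are class medians. On the left 10 points are filled, 5 on each side of 0, and on the right the only filled point is Slc7a8 at 6.32.

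Among the 15 amino acid carriers (of 51 with such a symbol), Slc7a8 passed in the test over all populations and Slc7a8 and Slc43a1 were lower in CD41/CD9-negative than in CD48dim. Over all populations this was 6.67% of the class, against 2.44% of all genes tested. In that pair it was 13.3%, against 4.02%. Slc7a8 (chr14:54722215-54781886), whose product LAT2 exchanges neutral amino acids together with Slc3a2, had a CPM of 98.5 and 124 in CD34bright, 28.5 and 22.3 in CD48dim, 66.3 and 43.9 in CD48bright and 2.28 and 0.484 in CD41/CD9-negative. CD34bright was the highest population and CD41/CD9-negative the lowest, and neither overlapped any other library. The means were 111 ± 18.2 CPM (SD, n = 2) in CD34bright and 1.38 ± 1.27 in CD41/CD9-negative, a ratio of 80.5. On the log2 scale the fitted difference was 6.32 ± 0.69 (SE) for CD34bright over CD41/CD9-negative (adjusted p = 0.00888, edgeR), -5.30 ± 0.67 for CD41/CD9-negative over CD48bright (adjusted p = 0.0359) and -4.19 ± 0.64 for CD41/CD9-negative over CD48dim (adjusted p = 0.00939). CD34bright over CD48dim, at 2.13 ± 0.56, did not pass with edgeR (adjusted p = 0.107) unless the replicate number was a block (2.19, adjusted p = 0.0371). DESeq2 called that pair (2.12, adjusted p = 0.00434). The call against CD48bright was lost without any 1 library of either population (adjusted p = 0.073 to 0.165), and that against CD48dim when only the 4 libraries were fitted (adjusted p = 0.138). Without the first and the second CD41/CD9-negative library the differences were 7.83 and 5.61 for CD34bright over CD41/CD9-negative, -6.81 and -4.59 against CD48bright, and -5.66 and -3.47 against CD48dim.

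Slc43a1 (chr2:84838855-84863586), the gene of the branched-chain amino acid carrier LAT3, had a CPM of 67.3 and 68.6 in CD34bright, 121 and 143 in CD48dim, 52.8 and 54.6 in CD48bright and 39.7 and 41.2 in CD41/CD9-negative. Both CD48dim libraries lay above and both CD41/CD9-negative libraries below all others. The difference between these populations was -1.71 ± 0.31 log2 (adjusted p = 0.019, edgeR), and the test over all populations gave 0.0506, or 0.0223 with the replicate block. Its call was lost without any 1 library of CD34bright or CD41/CD9-negative (adjusted p = 0.0561 to 0.186).

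The partner chain gene Slc3a2 had a CPM of 122 and 126 in CD34bright, 86.5 and 124 in CD48dim, 100.2 and 108 in CD48bright and 70.1 and 71.0 in CD41/CD9-negative, lowest in CD41/CD9-negative in both libraries but without passing (adjusted p = 0.472, edgeR). Another light chain gene of the Slc7 family, Slc7a5 (LAT1), was highest in CD34bright in both libraries without passing (adjusted p = 0.288). Its CPM was 112 and 122 in CD34bright, 36.2 and 68.0 in CD48dim, 92.2 and 62.7 in CD48bright and 54.8 and 18.7 in CD41/CD9-negative. Of the sodium-coupled carrier genes Slc38a2 and Slc38a1, which had the highest CPM of the class (per length, in TPM, Slc38a1 stood below Slc1a5 and Slc3a2), Slc38a2 ranged from 197 to 726 CPM, and Slc38a1 was at 376 ± 11.9 CPM in CD41/CD9-negative, above all 6 other libraries, and 209 ± 25.0 in CD48dim (adjusted p = 0.351 and 0.979 for Slc38a1 and Slc38a2). The glutamine carrier gene Slc1a5 had population means of 107 to 145 CPM (adjusted p = 0.887). The cationic amino acid carrier gene Slc7a1 was split widely within a pair. It was at 42.0 and 861 CPM in the CD48dim libraries and 70.5 to 105 in the other 6 (adjusted p = 0.27, edgeR). DESeq2 called it over all populations (adjusted p = 0.0241) and as lower in CD41/CD9-negative than in CD48dim (adjusted p = 0.0443). The class sum was 1200.0 and 2682 CPM in CD48dim and 1511 to 1927 in the other 6; without Slc7a1 the CD48dim sums were 1158 and 1820.0 CPM.

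**Figure D2:**
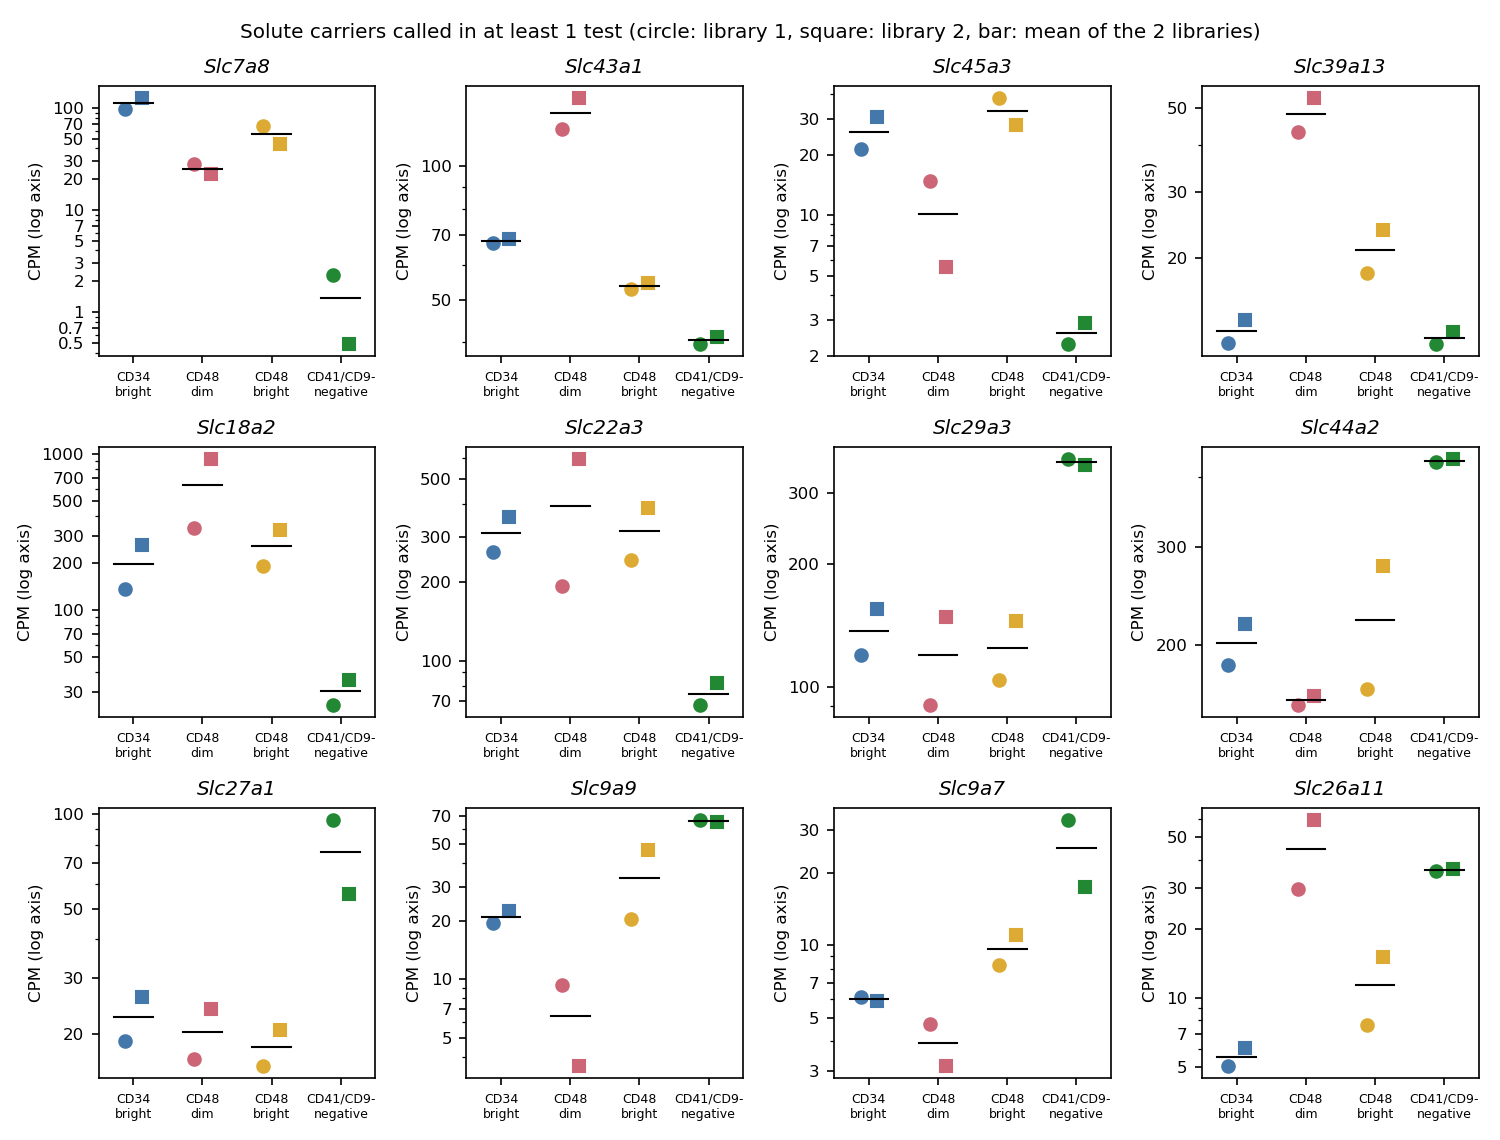
CPM (log axis) of the 12 carriers that passed at least 1 test, by population; circles are the first and squares the second library, and bars the means of 2. Slc7a8, Slc45a3, Slc18a2 and Slc22a3 are lowest in both CD41/CD9-negative libraries, and Slc29a3, Slc44a2, Slc27a1, Slc9a9 and Slc9a7 are highest there.

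The 9 sugar carriers (of 25) summed to 327 and 338 CPM in CD48dim, 241 and 302 in CD48bright, 242 and 269 in CD34bright and 208 and 215 in CD41/CD9-negative. On this scale both CD48dim sums lay above, and both CD41/CD9-negative sums below, the other libraries. Summed per length, the CD48dim libraries were again the highest, at 310.8 and 456.5 TPM, but CD41/CD9-negative, at 193.0 and 243.8, was not the lowest: CD34bright was at 165.3 and 204.8 TPM and CD48bright at 183.1 and 293.6. No test was run on these sums. For CD41/CD9-negative over CD48dim the class median was -0.76 log2, beside -0.06 over all genes tested. A positive sign was seen for 1 of 9 members (all genes: 6250 of 13177). With edgeR 0 of the 9 passed that comparison (all genes: 4.02%), and 3 had an unadjusted p below 0.05 (all genes: 2566 of 13177). Both libraries of CD48dim were above the other 6 for Slc50a1, Slc2a9 and Slc37a1, and both of CD41/CD9-negative below for Slc45a3, Slc2a9 and Slc37a1, beside 11.6% and 6.29% of all genes tested.

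Slc45a3 (chr1:131962915-131982972), the gene of a sucrose-type sugar carrier, had a CPM of 21.4 and 30.6 in CD34bright, 14.7 and 5.50 in CD48dim, 38.1 and 27.9 in CD48bright and 2.28 and 2.91 in CD41/CD9-negative. The CD34bright and CD48bright libraries were all above those of CD48dim, and these above those of CD41/CD9-negative. With edgeR the test over all populations passed (adjusted p = 0.048), while no pair did. CD41/CD9-negative over CD48bright was -3.66 ± 0.64 log2 (adjusted p = 0.0718) and CD34bright over CD41/CD9-negative 3.32 ± 0.63 (adjusted p = 0.0505). Both of these pairs passed with the replicate block (adjusted p = 0.0412 and 0.0284) and without both CD48dim libraries (adjusted p = 0.00116 and 0.000788). DESeq2 called both as well (adjusted p = 4.46e-07 and 4.85e-06), and CD41/CD9-negative over CD48dim (-1.97, adjusted p = 0.0162). The call over all populations was lost without any 1 library outside CD48dim (adjusted p = 0.102 to 0.255) and with limma-voom (adjusted p = 0.0501).

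The endomembrane sugar efflux gene Slc50a1 was the most abundant of the class per length. Its CPM was 32.7 and 26.4 in CD34bright, 73.6 and 71.6 in CD48dim, 31.7 and 49.9 in CD48bright and 35.7 and 50.7 in CD41/CD9-negative. Its CD34bright and CD48dim means differed by -1.30 ± 0.39 log2 without passing with edgeR (adjusted p = 0.135). DESeq2 called this pair (adjusted p = 0.0299). The glucose carrier genes did not separate the populations: Slc2a1 was at 18.1 to 34.2 CPM (adjusted p = 0.962) and Slc2a3 at 40.6 to 136 CPM, highest in the second CD48dim library (adjusted p = 0.617). Slc45a4 was at 29.5 to 60.6 CPM (adjusted p = 0.943). The fructose and urate carrier gene Slc2a9 had 7.08 and 7.10 CPM in the CD41/CD9-negative libraries and 11.4 to 18.1 elsewhere (adjusted p = 0.506).

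**Figure D3:**
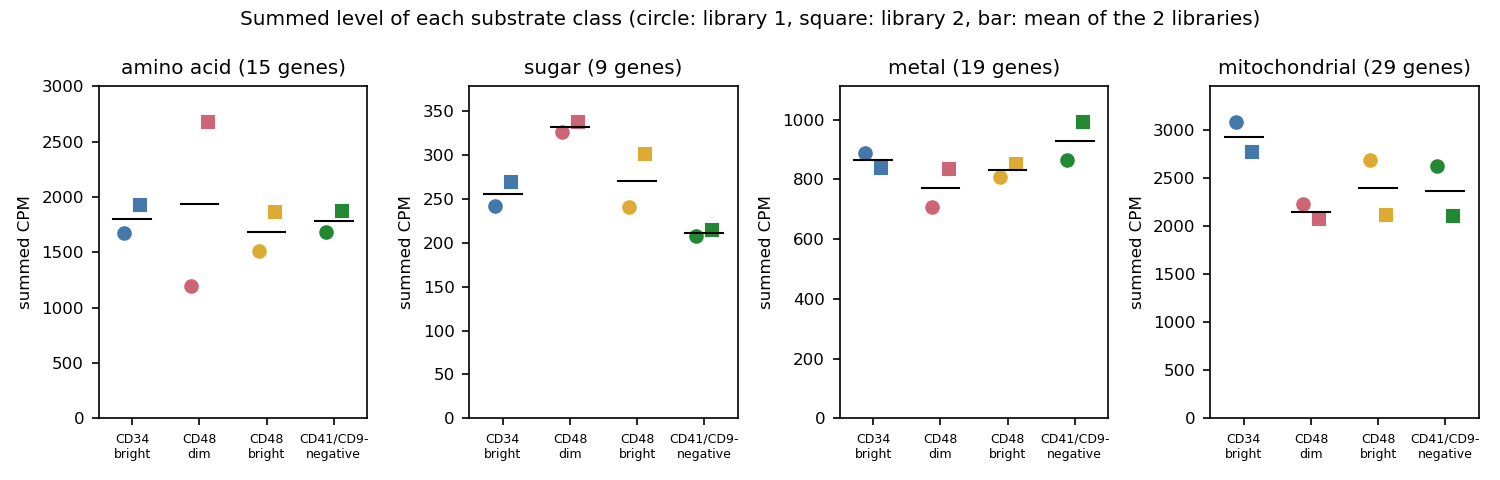
Summed CPM of the amino acid, sugar, metal and mitochondrial carriers in each library (circle, first; square, second) with the mean of 2 as a bar. On this CPM scale, though not for CD41/CD9-negative in TPM, the sugar sums are highest in both CD48dim and lowest in both CD41/CD9-negative libraries, and the amino acid sums of CD48dim, at 1200 and 2682, lie outside all others.

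Of the 19 metal carriers (of 30), 1 passed a test, between CD41/CD9-negative and CD48dim (5.26%, against 4.02% of all genes tested). Slc39a13 (chr2:91061781-91070441), the gene of the zinc carrier ZIP13, was lower in CD41/CD9-negative than in CD48dim. Its CPM was 11.9 and 13.6 in CD34bright, 43.2 and 53.2 in CD48dim, 18.2 and 23.7 in CD48bright and 11.8 and 12.7 in CD41/CD9-negative. Both CD48dim libraries lay above all others, and CD34bright and CD41/CD9-negative overlapped. The difference was -1.98 ± 0.43 log2 (adjusted p = 0.0375, edgeR). CD34bright was lower than CD48dim by a similar -1.91 ± 0.43. In edgeR this passed with the replicate block (adjusted p = 0.0328) and not without it (adjusted p = 0.0773). DESeq2 also called it (adjusted p = 0.000383). The CD41/CD9-negative call was lost without any 1 library outside CD48dim (adjusted p = 0.0697 to 0.268).

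The class median for CD41/CD9-negative over CD48dim was 0.44 log2, 11 of 19 were positive (all genes: 6250 of 13177), and 9 had an unadjusted p below 0.05 (all genes: 2566 of 13177). Slc39a13 alone passed with edgeR, while DESeq2 also called Slc30a5 as higher (1.53, adjusted p = 0.00502) and Slc41a1 as lower (-1.18, adjusted p = 0.0235). Slc30a5, which loads zinc into the secretory pathway, had a CPM of 101 and 71.6 in CD34bright, 52.9 and 30.8 in CD48dim, 90.5 and 72.5 in CD48bright and 112 and 129.6 in CD41/CD9-negative, with a difference of 1.53 ± 0.38 (adjusted p = 0.0586, edgeR) that passed with the block (1.59, adjusted p = 0.0203). Both libraries of CD41/CD9-negative were above all others for Slc30a4, Slc30a5 and Slc31a2, beside 8.1% of all genes tested, and both CD48dim libraries below all others for Slc30a5, Slc30a9, Slc31a1, Slc39a6 and Slc39a14, beside 11.6% of all genes. In the opposite order, both CD48dim libraries were above all others for Slc39a13 and Slc41a1 (all genes: 11.6%) and both CD41/CD9-negative libraries below all others for Slc41a1 (all genes: 6.29%). Slc30a4, a zinc carrier gene of vesicles, had 33.2 and 42.5 CPM in the CD41/CD9-negative libraries and 12.5 to 21.4 elsewhere (adjusted p = 0.194, or 0.033 without both CD48dim libraries). The product of the ZIP14 gene Slc39a14 takes up zinc, manganese and iron. The gene had 20.4 and 21.8 CPM in CD34bright, 8.37 and 1.92 in CD48dim, 9.21 and 12.6 in CD48bright and 22.0 and 14.7 in CD41/CD9-negative. It did not pass over all populations with edgeR (adjusted p = 0.369). DESeq2 called it as higher in CD34bright than in CD48dim (2.02, adjusted p = 0.0368).

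The metal carrier genes with the highest CPM, which does not correct for length, were Slc39a10, Slc30a7 and Slc30a9, and they ranged from 54.5 to 168, 55.3 to 193 and 50.2 to 131 CPM (adjusted p = 0.872, 0.707 and 0.529, edgeR). The plasma membrane zinc exporter gene Slc30a1 was at 26.0 and 3.16 CPM in CD48dim and 12.7 to 20.5 elsewhere, and the importer gene Slc39a1 at 47.1 and 7.01 CPM in CD48dim and 15.4 to 34.3 elsewhere (adjusted p = 0.996 and 0.999). Such gaps inside CD48dim were about as common in the class as elsewhere. More than 2-fold between the CD48dim libraries differed 10 of 19 metal carriers (52.6%), against 47.7% of all genes tested. Among them were Slc39a8 at 27.0 and 0.824 CPM and Slc39a3 at 6.46 and 55.7. The summed level was 929 ± 90.6 CPM (SD, n = 2) in CD41/CD9-negative, 863 ± 37.0 in CD34bright, 829.9 ± 30.4 in CD48bright and 772 ± 89.9 in CD48dim, and the ranges of neighbours in that order overlapped. The order depended on the scale. On plain totals CD34bright, at 809.8 CPM, was below CD48bright, at 847.8, and in TPM CD34bright was the lowest at 398.2, against 451.7 in CD48bright, 490.5 in CD48dim and 531.4 in CD41/CD9-negative.

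**Figure D4:**
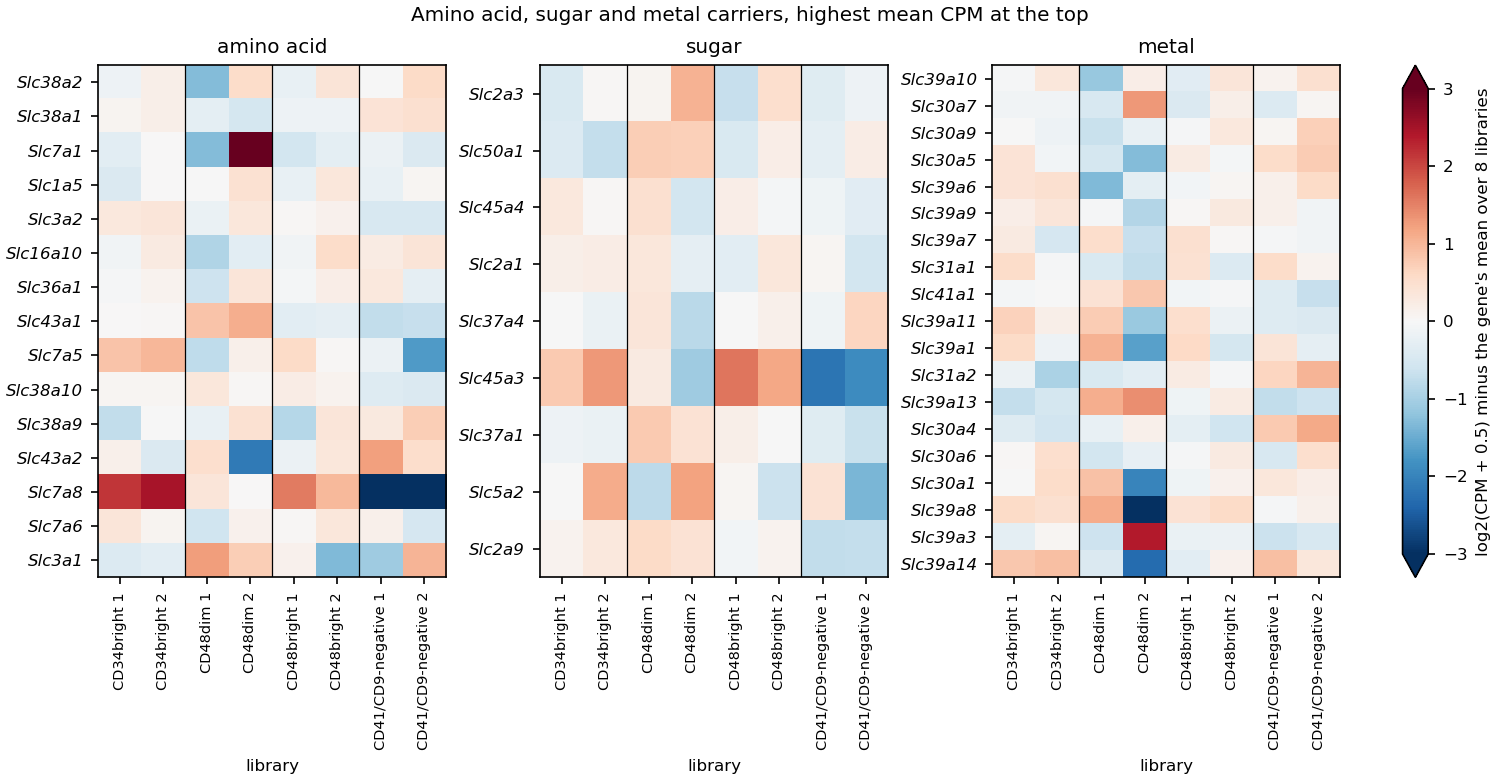
Levels of the 15 amino acid, 9 sugar and 19 metal carriers in each library, as log2(CPM + 0.5) minus the gene's mean over 8 libraries (red above, blue below; colour ends at 3). Slc7a8 and Slc45a3 are blue in both CD41/CD9-negative libraries, and the CD48dim libraries differ widely from each other in Slc7a1, Slc39a3 and Slc39a8.

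None of the 29 carriers classed as mitochondrial by family (of 46) passed with edgeR, in the test over all populations or in any pair. Of all genes tested, 2.44% passed over all populations and 4.02% between CD41/CD9-negative and CD48dim. Over all populations 1 of the 29 had an unadjusted p below 0.05 (all genes: 2220 of 13177). DESeq2 called 0 of them over all populations and Slc25a16 between CD34bright and CD48dim (2.25 log2, adjusted p = 0.00732). With the replicate block Slc25a5 (chrX:36795597-36798808) passed, over all populations (adjusted p = 0.0286) and for CD34bright over CD48dim (2.17 log2, adjusted p = 0.0173). This translocase gene, whose product exchanges ADP for ATP, had a CPM of 1186 and 895 in CD34bright, 438 and 126 in CD48dim, 925 and 351 in CD48bright and 815 and 300.0 in CD41/CD9-negative. In every population the first library was the higher one, and within each replicate number CD34bright was the highest and CD48dim the lowest. Without the block CD34bright over CD48dim was 1.88 ± 0.70 (adjusted p = 0.199). Its close paralog Slc25a4, with which it may share reads, had a CPM of 112 and 90.2 in CD34bright, 72.1 and 16.2 in CD48dim, 77.1 and 63.6 in CD48bright and 89.2 and 88.6 in CD41/CD9-negative (adjusted p = 0.616).

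Slc25a5 made up much of the class total. The 29 genes summed to 2934 ± 222 CPM (SD, n = 2) in CD34bright and 2153 ± 108 in CD48dim, with 2401 ± 406 in CD48bright and 2368 ± 371 in CD41/CD9-negative between them. Without Slc25a5 the 4 means were 1893, 1871, 1762 and 1810.0 CPM in that order, and every library lay between 1762 and 1951. On plain totals CD48dim was the highest of these, at 1938 CPM, and CD34bright the lowest, at 1777. The phosphate carrier gene Slc25a3 had a CPM of 535 and 411 in CD34bright, 493 and 171 in CD48dim, 505 and 328 in CD48bright and 371 and 306 in CD41/CD9-negative (adjusted p = 0.902, edgeR). Mitoferrin-1, the iron importer needed for haem synthesis, is the product of Slc25a37, which was at 207 and 325 CPM in CD48dim and 146 to 229 elsewhere (adjusted p = 0.743). Slc25a16, a carrier gene linked to coenzyme A, had a CPM of 37.0 and 43.4 in CD34bright, 3.89 and 12.9 in CD48dim, 23.0 and 23.0 in CD48bright and 33.9 and 19.1 in CD41/CD9-negative. Both CD34bright libraries lay above and both CD48dim libraries below the others, at a difference of 2.27 ± 0.61 (adjusted p = 0.11). Of the 29, 17 (58.6%) differed by more than 2-fold between the CD48dim libraries, against 47.7% of all genes tested. Between the CD48bright libraries 10 (34.5%) did, against 18.5% of all genes. The acylcarnitine carrier gene Slc25a20 went furthest, at 34.3 and 0.412 CPM in CD48dim, where the second value is 3 counts.

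**Figure D5:**
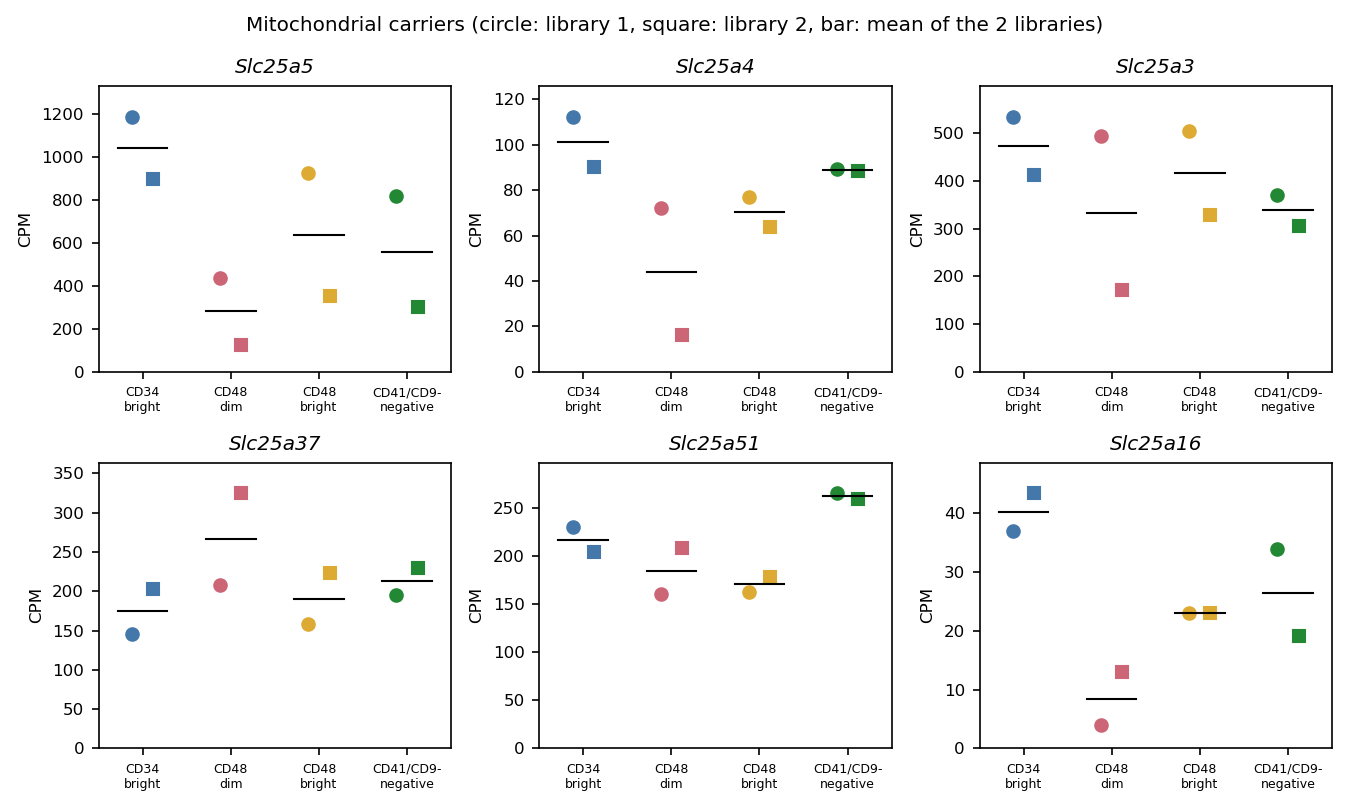
CPM of 6 mitochondrial carriers by population (circle, first library; square, second; bar, mean of 2; axes start at 0). Slc25a5 is higher in the first library of every population, and CD48dim has its lowest mean, 282, and CD34bright its highest, 1041.

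Inorganic ion carriers (16 of 58) held 3 of the 12 carriers that passed. Over all populations 6.25% of the 16 passed, against 2.44% of all genes tested, and between CD41/CD9-negative and CD48dim 12.5%, against 4.02%. Slc9a9 (chr9:94669557-95230453) and Slc9a7 (chrX:20098851-20292035), sodium-proton exchanger genes of recycling endosomes and the trans-Golgi, were higher in CD41/CD9-negative than in CD48dim. Slc9a9 had a CPM of 19.6 and 22.5 in CD34bright, 9.40 and 3.57 in CD48dim, 20.5 and 46.3 in CD48bright and 66.2 and 64.7 in CD41/CD9-negative. Slc9a7 had a CPM of 6.09 and 5.90 in CD34bright, 4.70 and 3.16 in CD48dim, 8.32 and 11.1 in CD48bright and 33.0 and 17.5 in CD41/CD9-negative. Both CD41/CD9-negative libraries were above all others for each gene, and both CD48dim libraries below all others. The differences were 3.32 ± 0.59 log2 for Slc9a9 (adjusted p = 0.0187, edgeR) and 2.67 ± 0.63 for Slc9a7 (adjusted p = 0.0487). Slc9a9 lost its call without either CD41/CD9-negative library (adjusted p = 0.103 and 0.106) and in the fit of 4 libraries (0.0742), and its difference was 4.20 without the first CD48dim library. Slc9a7 lost its call without any 1 library outside CD48dim (adjusted p = 0.0812 to 0.351) and with limma-voom (0.0756). The related gene Slc9a8 ranged from 30.5 to 71.9 CPM and did not pass (adjusted p = 0.815).

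Slc26a11 (chr11:119355509-119381076), a sulfate and chloride carrier gene, had a CPM of 5.05 and 6.04 in CD34bright, 30.0 and 59.4 in CD48dim, 7.65 and 15.1 in CD48bright and 35.7 and 36.4 in CD41/CD9-negative. The CD48dim and CD41/CD9-negative libraries lay above those of CD48bright, and both CD34bright libraries below all others. With edgeR it passed over all populations (adjusted p = 0.0464) and in no pair. The nearest was CD34bright over CD48dim at -3.01 ± 0.55 log2 (adjusted p = 0.053, or 0.0166 with the block). Without both CD48dim libraries CD34bright over CD41/CD9-negative was -2.70 (adjusted p = 0.00395). The call was lost without any 1 library outside CD48dim (adjusted p = 0.0601 to 0.182). DESeq2 called Slc26a11 for CD34bright over CD48dim (adjusted p = 6.94e-06), CD34bright over CD41/CD9-negative (8.62e-05) and CD48bright over CD48dim (0.00915). The neighbouring gene Sgsh shares 2 annotated bases with Slc26a11 and had 67.8% as many counts, and the libraries keep no strand.

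Among 9 nucleoside, nucleobase and nucleotide sugar carriers (of 13), 1 (11.1%) passed between CD41/CD9-negative and CD48dim, against 4.02% of all genes tested. This was Slc29a3 (chr10:60712072-60752849), which was higher in CD41/CD9-negative. Its product, ENT3, exports nucleosides from lysosomes. The gene had a CPM of 119.5 and 156 in CD34bright, 90.4 and 149 in CD48dim, 104 and 146 in CD48bright and 362 and 351 in CD41/CD9-negative, with both CD41/CD9-negative libraries above all others and the other 3 populations overlapping. The difference was 1.58 ± 0.36 log2 (adjusted p = 0.0452, edgeR), lost without any 1 library outside CD48dim (adjusted p = 0.0686 to 0.224) and with DESeq2's size factors in edgeR (0.0503). With the replicate block it also passed against CD48bright (1.55, adjusted p = 0.0474) and against CD34bright, which was lower by -1.40 (adjusted p = 0.0356). The surface carrier gene Slc29a1 (ENT1) had a CPM of 32.4 and 20.8 in CD34bright, 46.7 and 2.89 in CD48dim, 31.0 and 54.0 in CD48bright and 35.7 and 51.2 in CD41/CD9-negative, and its widest gap was inside CD48dim (adjusted p = 0.927). Slc28a2, a sodium-coupled nucleoside carrier gene, had 74.1 and 89.2 CPM in the CD41/CD9-negative libraries and 121 to 167 elsewhere (adjusted p = 0.272). Slc43a3 ranged from 103 to 337 CPM (adjusted p = 0.718).

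The 21 carriers of other organic molecules (of 79) held 4 of the 10 that differed between CD41/CD9-negative and CD48dim, 2 in each direction. That was 19.05% of the 21, against 4.02% of all genes tested. Over all populations 4.76% of the 21 passed, against 2.44%. Slc18a2 (chr19:59260878-59296012), whose product VMAT2 packs serotonin, histamine and other amines into granules, had a CPM of 136 and 259 in CD34bright, 333 and 923 in CD48dim, 192 and 323 in CD48bright and 24.6 and 35.8 in CD41/CD9-negative. Both CD48dim libraries lay above, and both CD41/CD9-negative libraries below, all others. The means of 628 ± 417 and 30.2 ± 7.93 CPM (SD, n = 2) have a ratio of 20.8, with a fitted -4.38 ± 0.61 log2 for CD41/CD9-negative over CD48dim (adjusted p = 0.00661, edgeR). CD41/CD9-negative was also -3.09 ± 0.57 against CD48bright (adjusted p = 0.0882) and CD34bright over CD41/CD9-negative 2.71 ± 0.56 (adjusted p = 0.0707). Those 2 passed with the block (adjusted p = 0.00688 and 0.00409) and without both CD48dim libraries (0.00157 and 0.00165). Its call over all populations was lost without either CD41/CD9-negative library (adjusted p = 0.141 and 0.18), as was that against CD48dim (0.0611 and 0.0884). Without the second CD48dim library the latter difference was -3.46.

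Slc22a3 (chr17:12419972-12507704), the gene of the polyspecific organic cation carrier OCT3, which takes up histamine and other amines, had a CPM of 260.5 and 357 in CD34bright, 193 and 595 in CD48dim, 244 and 387 in CD48bright and 67.4 and 81.9 in CD41/CD9-negative. Both CD41/CD9-negative libraries lay below the other 6, which overlapped. The difference from CD48dim was -2.40 ± 0.53 log2 (adjusted p = 0.0376, edgeR), lost without any 1 library outside CD48dim (adjusted p = 0.0511 to 0.272). The difference was -1.37 without the second CD48dim library and -2.98 without the first. Without both CD48dim libraries CD41/CD9-negative was lower than CD48bright by -2.08 (adjusted p = 0.00416) and CD34bright higher than CD41/CD9-negative by 2.05 (adjusted p = 0.00253). The platelet marker sum was likewise lowest in CD41/CD9-negative, at 42.3 and 22.7 CPM, and its part in the lower Slc18a2 and Slc22a3 levels was not tested. The urea carrier gene Slc14a1 had a CPM of 96.7 and 209.6 in CD34bright, 224 and 701 in CD48dim, 196 and 180.3 in CD48bright and 119 and 158 in CD41/CD9-negative. CD48dim was the highest in both libraries, at -1.74 ± 0.55 for CD41/CD9-negative over CD48dim (adjusted p = 0.125, or 0.0461 with the block and 0.0285 with DESeq2).

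Slc44a2 (chr9:21320719-21355028), a choline carrier gene, had a CPM of 184 and 218 in CD34bright, 156 and 162 in CD48dim, 167 and 277 in CD48bright and 426 and 431 in CD41/CD9-negative, and Slc27a1 (chr8:71568728-71587307), a long-chain fatty acid carrier and acyl-CoA synthetase gene, had 19.0 and 26.2 in CD34bright, 16.6 and 23.9 in CD48dim, 15.8 and 20.5 in CD48bright and 95.8 and 55.9 in CD41/CD9-negative. For both, the CD41/CD9-negative libraries lay above the other 6, and for Slc44a2 both CD48dim libraries lay below them. The differences from CD48dim were 1.43 ± 0.34 log2 (adjusted p = 0.0487, edgeR) and 1.91 ± 0.45 (adjusted p = 0.0487). Both calls were lost without any 1 library outside CD48dim (adjusted p = 0.0632 to 0.251 for Slc44a2 and 0.0755 to 0.351 for Slc27a1) and with DESeq2's size factors in edgeR (0.0526 and 0.0515), and that of Slc27a1 also with limma-voom (0.0507). Without both CD48dim libraries Slc27a1 was higher in CD41/CD9-negative than in CD48bright (2.07, adjusted p = 0.0103). B cell markers were likewise highest in CD41/CD9-negative, at a sum of 138.0 and 119.5 CPM, and their part in these levels was not tested. The fatty acid carrier gene Slc27a6 had a CPM of 1.34 and 1.07 in CD34bright, 10.6 and 95.5 in CD48dim, 0.416 and 8.41 in CD48bright and 2.44 and 0.0807 in CD41/CD9-negative, where the last value lies under the level of 3 counts (0.242 CPM), and no pair passed with edgeR (adjusted p = 0.134 over all populations). DESeq2 called Slc27a6 lower than in CD48dim in CD41/CD9-negative (adjusted p = 0.0361) and CD34bright (adjusted p = 0.0376).

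The 3 monocarboxylate carriers (of 14) and the 4 vitamin carriers (of 11) held no gene that passed with edgeR (all genes: 2.44% over all populations). DESeq2 called Slc16a7 over all populations (adjusted p = 0.0466) and as higher than in CD48dim in CD41/CD9-negative (adjusted p = 0.00709) and CD34bright (adjusted p = 0.0304), and the vitamin carrier gene Slc46a3 as lower in CD34bright than in CD48dim (-3.11, adjusted p = 0.0152). The lactate and pyruvate carrier gene Slc16a1 had a CPM of 107 and 62.0 in CD34bright, 58.9 and 29.1 in CD48dim, 122 and 52.4 in CD48bright and 44.7 and 41.7 in CD41/CD9-negative (adjusted p = 0.455, edgeR), and Slc16a6 ranged from 58.5 to 142 CPM (adjusted p = 0.793). Slc16a7 was at 6.17 and 3.57 CPM in CD48dim and 9.36 to 21.2 elsewhere (adjusted p = 0.27). The ascorbate carrier gene Slc23a2 ranged from 33.7 to 78.2 CPM (adjusted p = 0.819).

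Genes that work with these carriers were read from lists chosen for their roles. Of the 2 partner proteins that bring monocarboxylate carriers to the surface, Emb passed: it had a CPM of 538 and 449 in CD34bright, 53.4 and 69.3 in CD48dim, 283 and 449 in CD48bright and 584 and 779 in CD41/CD9-negative, with both CD48dim libraries far below the other 6. It was higher than in CD48dim by 2.58 ± 0.38 log2 in CD48bright (adjusted p = 0.0353, edgeR), 3.47 ± 0.39 in CD41/CD9-negative (adjusted p = 0.00264) and 3.01 ± 0.38 in CD34bright (adjusted p = 0.0289). Bsg, the other partner, had a CPM of 200.3 and 215 in CD34bright, 237 and 63.9 in CD48dim, 149.6 and 121 in CD48bright and 157 and 97.3 in CD41/CD9-negative (adjusted p = 0.846). Of 6 organic anion carriers of the related Slco family, the prostaglandin carrier gene Slco2a1 passed, at 28.8 and 82.3 CPM in CD48dim and 0 to 0.206 elsewhere. Of 5 genes that trap or gate glucose, none passed over all populations; the hexokinase gene Hk1 was lower in CD41/CD9-negative than in CD48dim by -1.72 ± 0.32 (adjusted p = 0.0211), at 44.1 ± 6.43 against 145 ± 21.8 CPM (SD, n = 2). With edgeR 0 of 11 amino acid response genes, 0 of 11 lysosomal amino acid sensing genes, 0 of 3 metal binding genes and 0 of 14 other inner membrane carriers and channels passed over all populations or in a pair.

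The order of the libraries was also counted, with no model. For 16 carriers (12.8%) both CD41/CD9-negative libraries lay below the other 6, against 6.29% of all genes tested, and for 14 (11.2%) above, against 8.1%. For CD48dim the counts were 15 above (12%), against 11.6% of all genes, and 14 below (11.2%), against 11.6%. CD34bright lay above for 7 (all genes: 4.86%) and below for 3 (4.18%), and CD48bright above for 2 (1.38%) and below for 0 (1.43%). Amino acid carriers gave 4 of the 16 that were lowest in CD41/CD9-negative (Slc7a8, Slc43a1, Slc3a2 and Slc38a10) and mitochondrial carriers another 4. Of the 16, Slc7a8, Slc18a2 and Slc45a3 passed the test over all populations.

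The second library was the higher one in all 4 populations for 34 carriers (27.2%), against 14.8% of all genes tested, and the first for 18 (14.4%), against 16.6%. Between the 2 libraries of a population, 63 carriers (50.4%) differed by more than 2-fold in CD48dim (all genes: 47.7%) and 23 (18.4%) in CD48bright (18.5%). In CD41/CD9-negative 12 (9.6%) did (all genes: 15.4%), and in CD34bright 6 (4.8%, all genes: 9.08%). Of the 125, 25 overlap another annotated gene in the tables, and for 8 the overlapping gene had over 50% as many counts: Slc33a1, Slc31a1, Slc25a11, Slc39a11, Slc26a11, Slc39a9, Slc48a1 and Slc3a1. Since the libraries keep no strand, reads of such neighbours cannot be told apart where they overlap.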

How the data were processed

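RNA-seq of 8 libraries (4 sorted populations, 2 each) was analysed from gene tables of expected counts and TPM as deposited by the authors. Reads were handled with STAR 2.7.2a, RSEM 1.3.2 and edgeR 3.30.3 on mm10, per the submitters' processing notes. The annotation release could not be read from them, and 8 further count files were not used here.

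Expected counts were rounded and 13177 of 24411 genes kept by filterByExpr. They were scaled by TMM and tested over all populations and in 6 pairs with edgeR 4.0.16 (quasi-likelihood F-test, R 4.3.3), with Benjamini-Hochberg adjusted p below 0.05 as the threshold. CPM uses the TMM-scaled totals, except for the choice of genes, which uses plain totals. The scripts were tested on simulated data. Totals of 7237587 to 20632005 counts limit precision, and 3 counts correspond to 0.155 to 0.412 CPM.

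Replicate numbers come from the labels, which do not say what they mark. Deviations of same-numbered libraries from their population means correlated in all 6 pairs of populations (r = 0.142 to 0.274 over all genes tested), so the number was used as a block in an alternative fit.

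The carriers, classes and lists were chosen with earlier results of these data known. Named genes were those passing over all populations, the most abundant and most variable of each main class, fixed members, and genes at the minimum. A result that this rule would name is not reported here. Genes that passed only in a pair were added after their values were seen. Alternatives were DESeq2 1.42.0, limma-voom (limma 3.58.1), other size factors, no filter, other CPM minimums, the 4 compared libraries alone, and leaving out libraries. Promoters are from RefSeq, build GRCm38.p6.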

Additional observations from a re-analysis of the deposited data

How the results depend on the processing

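None of the 12 pair calls changed direction under the alternatives run, while the order of some class sums did. The 4 calls over all populations have no direction that could change. In brackets is the share of all genes called in the same fit. Over all populations the count of 4 carriers (2.44%) was 25 with no filter (8.69%), 13 with the replicate block (5.8%), 20 with DESeq2 (13.2%), 10 without both CD48dim libraries (4.68%, chosen after seeing the data) and 1 to 47 with 1 library left out (0.226% to 24.7%). For CD48bright against CD48dim the count of 0 was 5 with no filter (3.18%), 3 with DESeq2 (5.77%) and 0 to 39 with 1 library left out (0.0283% to 23.3%). For CD41/CD9-negative against CD48dim the count of 10 was 18 with no filter (6.44%), 19 with DESeq2 (11.4%), 1 with the 4 compared libraries alone (1.02%) and 1 to 42 with 1 library left out (0.573% to 23.9%). For CD41/CD9-negative against CD48bright the count of 1 was 6 with no filter (1.63%), 5 with the replicate block (0.751%), 7 with DESeq2 (2.88%), 6 without both CD48dim libraries (2.97%), 6 with the 4 libraries alone (2.47%) and 0 to 7 with 1 left out (0% to 3.09%). For CD34bright against CD48dim the count of 0 was 16 with no filter (5.51%), 7 with the replicate block (5.18%), 15 with DESeq2 (9.68%) and 0 to 52 with 1 left out (0% to 28.4%). For CD34bright against CD41/CD9-negative the count of 1 was 2 with DESeq2's size factors in edgeR (0.888%), 8 with no filter (2.88%), 6 with the replicate block (2.02%), 9 with DESeq2 (4.87%), 13 without both CD48dim libraries (5.66%), 17 with the 4 libraries alone (8.7%) and 1 to 15 with 1 left out (0.0212% to 5.46%). For CD34bright against CD48bright it was 0 in every fit run (0% to 0.257%, the highest with DESeq2). On plain totals the summed sugar level of CD48dim was 344.8 CPM against 332.7. The metal level of CD34bright was 809.8 against 862.9, which put it below CD48bright, at 847.8 against 829.9. Leaving out a CD48dim library removes the spread within that population from the estimate and also changes its mean. The cause of these and the other shifts was not tested.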
